A study of Mus musculus with 21 samples.

Results

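The genes described are those of the natriuretic peptide system that the left ventricle uses: the ligands Nppa and Nppb, the processing enzyme Corin and the receptors Npr1, Npr2 and Npr3. They were chosen by name, as the 6 rows of the deposited count table whose Ensembl identifiers carry these symbols, out of 55450 genes in the table. The tissue was left ventricle from 21 male mice of the strain 129S6/SvEv, each sequenced as a library of its own. Wild-type mice (WT) and littermates heterozygous for the α-myosin heavy chain mutation, with the label Myh6+/R404Q (R403Q), were fed a control diet (CD) or the same diet with the SGLT2 inhibitor empagliflozin (EMPA) at 0.15 mg per g. On the control diet there were 5 wild-type mice (WT-CD) and 7 mutant mice (R403Q-CD), and on EMPA 4 mutant mice (R403Q-EMPA) and 5 wild-type mice (WT-EMPA). Hearts were taken at 12 weeks of age. The authors' echocardiography of R403Q mice at this age found diastolic dysfunction but no left ventricular hypertrophy. Sources differ on the time on EMPA, with 2 weeks in the methods and 16 weeks in the sample labels, which is longer than the mice had lived. The allele is one of Myh6 itself, the main myosin gene of adult mouse cardiomyocytes, and both R403Q groups carried it. By the cage label of each mouse, mice of a diet shared cages (4 CD cages and 3 EMPA cages), and no cage held both diets, so diet and cage cannot be told apart.

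Atrial natriuretic peptide (from Nppa) and B-type natriuretic peptide (from Nppb) are hormones that cardiomyocytes release when the wall is stretched. The atria make most of both in the healthy adult heart, and renewed ventricular expression is a classical sign of hypertrophy and load. Corin is a membrane serine protease of cardiomyocytes that cleaves pro-atrial natriuretic peptide into the active hormone. Npr1 encodes the guanylyl cyclase receptor for both cardiac peptides, which signals through cyclic GMP. Npr2 encodes the guanylyl cyclase receptor for C-type natriuretic peptide, and Npr3 the receptor without a cyclase domain that takes the peptides up and clears them.

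Nppa (ENSMUSG00000041616) lies on the plus strand at chr4:148000722-148002079 and Nppb (ENSMUSG00000029019) on the same strand at chr4:147985788-147987205 of GRCm38, the assembly that the authors' mm10 names. The genes are thus neighbours, with 13516 bases between the end of Nppb and the start of Nppa. Npr2 (ENSMUSG00000028469) is on the same chromosome, at chr4:43631935-43651244 on the plus strand. Npr1 (ENSMUSG00000027931) lies at chr3:90450591-90465866, Npr3 (ENSMUSG00000022206) at chr15:11839896-11907287 and Corin (ENSMUSG00000005220) at chr5:72300025-72504473, all on the minus strand. Stretches before the RefSeq starts of the ligands are shown because the ligands varied together from mouse to mouse, with the whole stretch of 250 bases before the RefSeq start of Nppa (chr4:148000472-148000721) and a stretch of 30 bases of Nppb (chr4:147985795-147985824). The annotation whose positions are given above starts Nppb upstream of its RefSeq start, so the Nppb stretch lies inside the annotated gene and only a short piece is printed. Both are from RefSeq on GRCm38.p6, plus strand, 5′ to 3′, with capitals at matches to the motifs described next.
Nppa: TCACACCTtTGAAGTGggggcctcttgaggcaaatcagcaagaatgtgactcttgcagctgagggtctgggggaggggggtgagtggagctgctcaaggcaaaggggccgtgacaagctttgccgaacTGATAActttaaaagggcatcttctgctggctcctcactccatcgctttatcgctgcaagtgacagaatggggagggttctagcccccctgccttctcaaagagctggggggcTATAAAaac
Nppb: GGAATGcagcTGATAAatcagAGATAAccc
The motifs were searched on both strands in the 250 bases before the start, and none of the matches overlapped another. GATA motifs, spelled AGATAA with T allowed as the first base and G as the last, the sites of the cardiac factors GATA4 and GATA6, stood once before Nppa and in 2 places before Nppb, and 27.1% of 27025 promoters of the same length held at least 1. An M-CAT motif (CATTCC), bound by TEAD factors, stood in the Nppb stretch as its reverse complement GGAATG, and 12.6% of promoters held it. Nppa held the NKX2-5 motif TNAAGTG (10.0% of promoters) and, as its reverse complement TCACACCT, the T-box motif AGGTGTGA (1.14%). A TATA motif (TATAAA) was found before both ligand genes and in 13.0% of promoters. The windows before Npr1, Npr2, Npr3 and Corin held none of these letters. The motifs were taken from textbook accounts of the ligand promoters, a match is only a match of letters, and the reference is of another mouse strain than these animals.

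Libraries held 23491535 to 43539684 counts per mouse, and every one of the 6 genes had at least 626 counts in each mouse and passed the filter on low counts. Myh6, the mutated gene, had 40598 to 46180 CPM (read counts scaled to a common library total) in WT-CD and 17517 to 40779 CPM in R403Q-CD; its total count does not tell the alleles apart and so does not check the genotype. All 9 cardiomyocyte markers were high, summing to between 57783 and 83404 CPM. A library stood apart: R403Q-CD replicate 2 had the lowest Myh6 (17517 CPM), the lowest cardiomyocyte sum (57783 CPM) and the highest fibroblast sum of 8 markers (5997 CPM against 1076 to 3030 CPM in the other mice). Of 10 atrial markers, the defining genes Sln, Myl4 and Myl7 varied widely in this ventricular tissue, with Myl7 from 0.146 to 180.2 CPM, while Bmp10 had no count in 14 of 21 mice and at most 0.111 CPM. In 5 mice Myl7 lay above 25 CPM: R403Q-CD replicates 1, 2 and 6, WT-CD replicate 5 and WT-EMPA replicate 1. Where leaving out these mice changed a call of the 6 genes or moved a printed fold of theirs by over 1.5 times, both values are given. Folds of other genes are given with these mice included and may rest on them. In whole tissue, a change in the number of cells of a type and a change in RNA per cell cannot be told apart.

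Per length, the ligands led the system. Over the 21 mice the mean level was 1558 CPM per kilobase of exon for Nppa, 209 for Nppb, 81.9 for Corin, 14.6 for Npr2, 6.32 for Npr1 and 4.81 for Npr3. Without R403Q-CD replicate 2 the mean of Nppa was 1001 and that of Nppb 179 CPM per kilobase, in the same order. Nppa lay at percentile 99.9 and Corin at percentile 96.5 of 17293 genes on this scale. Neighbours in this order kept it in each of the 21 mice, except that Corin exceeded Nppb in 2 mice and Npr3 exceeded Npr1 in 2 mice; the differences between genes were not tested. The ratio of Npr3 to Npr1 per base of exon averaged 0.641 (SD 0.0625, n = 5) for WT-CD and 0.864 (SD 0.386, n = 7) for R403Q-CD, where it ran from 0.503 to 1.61. The other ligands were close to absent. C-type natriuretic peptide (Nppc) had 0 to 15 counts and osteocrin (Ostn), a ligand of the clearance receptor, 0 to 28 counts per mouse, and neither passed the filter.

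**Figure D1:**
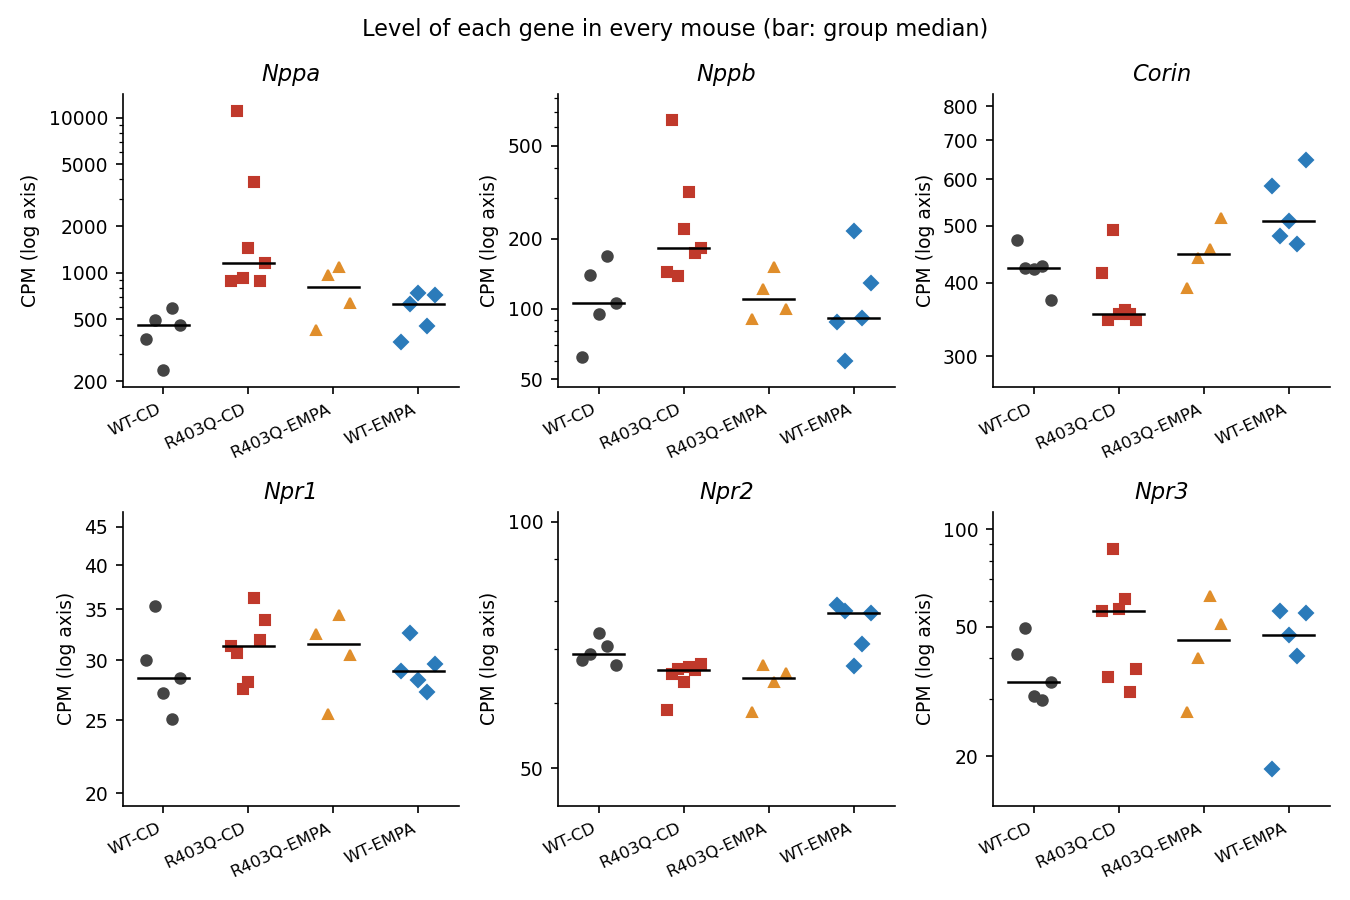
Level of each gene in CPM (log axis, which differs between panels) in every mouse, by group, with a bar at the group median. All 7 R403Q-CD mice lie above all 5 WT-CD mice for Nppa, with R403Q-CD replicate 2 at 10988 CPM, while Npr1 reaches at most 36.2 CPM in any mouse.

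Nppa was the gene of the system that differed most between R403Q-CD and WT-CD hearts. The WT-CD mice had 373, 499, 238, 595 and 463 CPM (replicates 1 to 5). The R403Q-CD mice ran from 882 CPM through a median of 1151 to 10988 CPM. The lowest R403Q-CD mouse thus lay above the highest WT-CD mouse, and 2 mice, replicates 2 and 5 with 10988 and 3824 CPM, stood far above the other 5, which held 882 to 1437 CPM. The groups did not overlap for 1 of the 6 genes, and 2.15% of 17025 genes tested did not overlap in either direction. The fitted log2 fold change was 2.73 ± 0.64 (SE; 6.62-fold; adjusted p = 0.0579, edgeR's quasi-likelihood test), which missed the threshold of 0.05. None of the 6 genes passed in this contrast, where 0.576% of all genes tested did. DESeq2's Wald test called Nppa (adjusted p = 0.00231) and Nppb (adjusted p = 0.0470), 2 of 6 genes against 4.77% of all genes. When all 4 groups shared 1 fit, edgeR called Nppa (adjusted p = 0.0248), where 250 of 17309 genes passed.

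The size of the Nppa difference rested on R403Q-CD replicate 2. Without this mouse the log2 fold change was 1.81 (3.50-fold) and passed the threshold (adjusted p = 0.0299, edgeR), where 177 of 16927 genes did. Without the 5 mice with Myl7 above 25 CPM, an alternative added after the data were seen, it was 2.11 (4.31-fold, adjusted p = 0.0379, edgeR). In that fit 143 of 16696 genes passed. Replicate 2 had 180.2 CPM of Myl7, 339 CPM of Myl4 and 88.4 CPM of Sln, the highest of all mice. WT-CD replicate 5 had the second highest Myl7, 108 CPM, with Nppa at 463 CPM. R403Q-CD replicate 5, the second mouse in Nppa with 3824 CPM, had 11.1 CPM of Myl7, and R403Q-CD replicate 6 had 70.3 CPM of Myl7 with 889.8 CPM of Nppa. The same 2 mice that led in Nppa also led in the fibroblast sum, with 5997 CPM in replicate 2 and 3030 CPM in replicate 5 against 1622 to 2115 CPM in the other R403Q-CD mice. The part of atrial tissue or of fibroblast content in the Nppa levels was not tested beyond leaving out these mice.

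**Figure D2:**
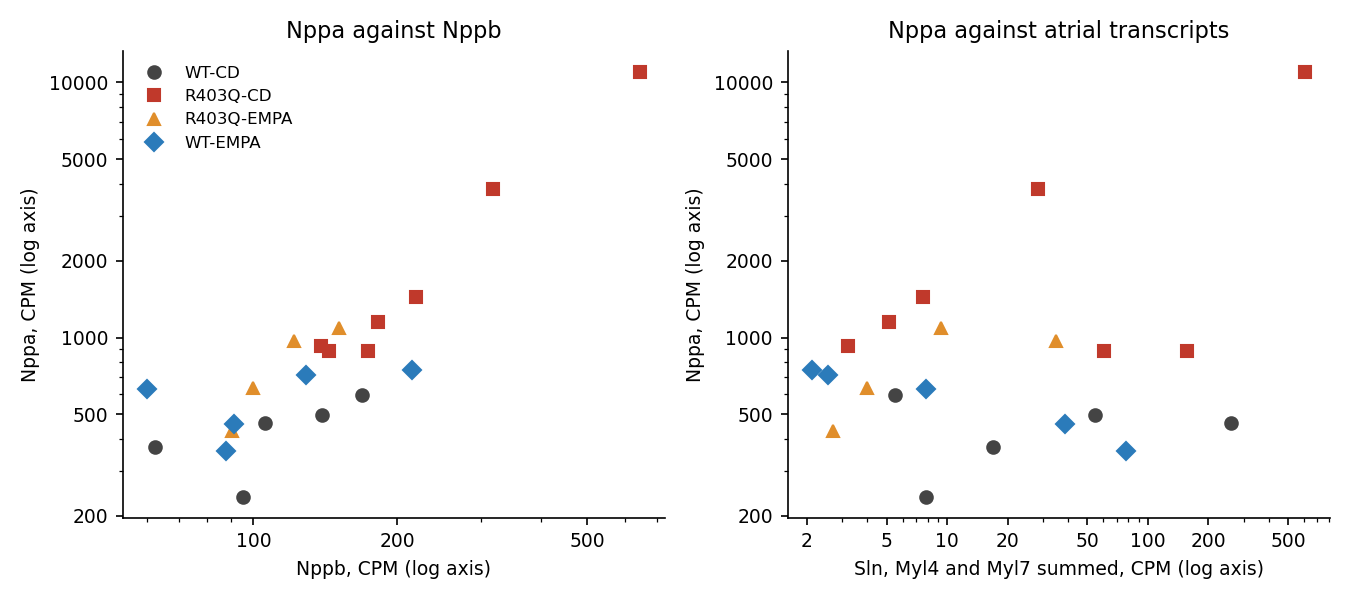
Left, Nppa against Nppb, and right, Nppa against the summed Sln, Myl4 and Myl7, in CPM on log axes, 1 point per mouse, coloured by group. On the left the 2 highest R403Q-CD mice (10988 and 3824 CPM of Nppa) are also the highest in Nppb (645 and 317 CPM), and on the right the R403Q-CD mouse with 3824 CPM of Nppa has 28.5 CPM of the summed atrial genes while a WT-CD mouse with 260.2 CPM of them has 463 CPM of Nppa.

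Nppb differed less than Nppa and its groups overlapped. The WT-CD mice had 62.4, 139, 95.3, 168 and 106 CPM (replicates 1 to 5), and the R403Q-CD mice ran from 139 CPM through a median of 182 to 645 CPM. Of the 7 R403Q-CD mice, 5 lay above every WT-CD mouse. The log2 fold change was 1.19 ± 0.36 (SE; 2.28-fold; adjusted p = 0.104, edgeR), and 0.78 without R403Q-CD replicate 2 (adjusted p = 0.114, edgeR). Within the 7 R403Q-CD mice the ligands varied together: the Pearson correlation of their log2 CPM was 0.985 (exact permutation p = 0.000794, two-sided, n = 7) and Spearman's rho 0.893 (exact permutation p = 0.0123, n = 7), the only relation tested. Without the 2 mice farthest from the median of Nppa, r was 0.863 (exact permutation p = 0.05, n = 5) and rho 0.7 (exact permutation p = 0.233, n = 5), so the strength of the relation rested in part on these mice. Nppa exceeded Nppb per base of exon by 3.61-fold for WT-CD (SD 1.17, n = 5) and by 7.73-fold for R403Q-CD (SD 3.94, n = 7), with 15.4-fold in replicate 2 and 10.9-fold in replicate 5.

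The 7 tested neighbours described here, all within 100 kb of the ligand genes, passed the threshold in none of the contrasts, in which 0% to 10.9% of all genes did. The antisense gene Gm13054, which overlaps Nppa on the minus strand, differed most: 2.09 ± 0.61 on the log2 scale in R403Q-CD against WT-CD (SE; adjusted p = 0.0991, edgeR). This value rested in part on R403Q-CD replicate 2, with 10.8 CPM of Gm13054 against a group median of 1.36 CPM and a WT-CD median of 0.798 CPM. Its counts were 0.763 to 2.36 per 1000 counts of Nppa in every mouse (median 1.53, n = 21), and the counting was by strand according to the methods. Of other genes that overlap members, Gm16048 at Npr1, Gm12473 at Npr2 and Gm20647 at Corin had group means of at most 0.155 CPM, and the rest were not examined. The flanking gene Clcn6, which encodes a chloride transporter, stood at -0.16 ± 0.09 on the log2 scale (SE; adjusted p = 0.320, edgeR). Mfn2, a mitochondrial fusion protein, stood at -0.12 ± 0.10 (SE; adjusted p = 0.502, edgeR), Plod1 at -0.02 ± 0.08 (SE) and Agtrap, which binds the angiotensin receptor, at -0.21 ± 0.08 (SE; adjusted p = 0.182, edgeR). The other pair, 2510039O18Rik and Chchd2-ps, had log2 fold changes of -0.01 and 0.00.

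In R403Q-EMPA hearts both ligands stood between the other groups or near WT-CD. Nppa was at 429, 972, 1089 and 636 CPM (replicates 1 to 4), so that 3 of 4 mice lay above every WT-CD mouse and 2 of 4 below every R403Q-CD mouse. Nppb was at 90.2, 121, 151 and 99.7 CPM, of which 3 lay below every R403Q-CD mouse and none above every WT-CD mouse. Against R403Q-CD the log2 fold change was -1.88 ± 0.67 for Nppa (SE; 3.67-fold lower; adjusted p = 0.303, edgeR) and -1.17 ± 0.39 for Nppb (SE; 2.25-fold lower; adjusted p = 0.264, edgeR). None of the 6 genes passed, and 0% of all 17025 genes did. Over all genes, 2123 had an unadjusted p under 0.05 in this contrast, and DESeq2 called 139, with adjusted p of 0.173 for Nppa and 0.167 for Nppb. Without R403Q-CD replicate 2 the Nppa difference was -0.96 (1.94-fold lower; adjusted p = 0.366, edgeR), and without the 5 mice with Myl7 above 25 CPM it was -1.23 (2.35-fold lower; adjusted p = 0.306, edgeR). Of the 9 atrial markers tested in this contrast, 7 had log2 fold changes below 0 and 2 above, and none passed. Among them Sln had a median of 1.89 CPM in R403Q-CD and 0.124 CPM in R403Q-EMPA, Myl4 15.5 and 5.12 CPM, and Myl7 11.1 and 1.39 CPM, with overlapping groups. R403Q-CD replicate 2 lay far above the other mice in all 3, so that the means (15.5 and 0.751 CPM for Sln, for example) were further apart than the medians. The log2 fold changes of these 3 were -4.26 (adjusted p = 0.359), -3.02 (adjusted p = 0.382) and -3.40 (adjusted p = 0.391) in edgeR. The list's median was -1.40 against -0.0035 over all genes. The summed atrial list had a median of 692 CPM in R403Q-CD and 789 CPM in R403Q-EMPA. Most of this sum was the gene Clu, with medians of 635 and 717 CPM, so the sum says little of the other markers. The 8 fibroblast markers had a median of -0.49 (7 below 0) and the 5 smooth muscle markers one of -0.72 (5 below 0), none called. The part of these markers in the ligands' difference was not tested. Against WT-CD, R403Q-EMPA had log2 fold changes of 0.85 ± 0.66 for Nppa (SE; adjusted p = 0.667, edgeR) and 0.02 ± 0.40 for Nppb (SE; adjusted p = 0.996, edgeR). None of the 6 genes passed in that contrast, against 0.493% of all genes. The contrasts with R403Q-CD and with WT-CD use the same 4 treated mice, so they are not independent of each other. Likewise, R403Q-CD against WT-CD and R403Q-EMPA against R403Q-CD share the R403Q-CD mice, which enter with opposite sign.

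In wild-type hearts, EMPA gave no called change in any of the 6 genes, where 0.0289% of 17309 genes passed. WT-EMPA mice had 360, 630.5, 746, 457 and 716 CPM of Nppa (replicates 1 to 5) and 87.7, 60.0, 215, 91.0 and 129 CPM of Nppb. Both sets overlapped those of WT-CD. The log2 fold changes were 0.42 ± 0.57 for Nppa (SE; adjusted p = 0.831, edgeR) and 0.03 ± 0.38 for Nppb (SE; adjusted p = 0.989, edgeR). The interaction of genotype and diet, that is the EMPA difference in R403Q less that in WT, was -2.30 ± 0.83 for Nppa and -1.19 ± 0.55 for Nppb on the log2 scale (SE; adjusted p = 0.999 for both, edgeR). Without R403Q-CD replicate 2 it was -1.38 for Nppa and -0.79 for Nppb. No gene passed the interaction test (0% of 17309; 567 at an unadjusted p under 0.05, and 0 adjusted calls by DESeq2), so a different response of the genotypes was not shown.

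Averaged over both diets, R403Q hearts had more Nppa and slightly less Npr2 than WT hearts. The log2 difference of Nppa was 1.58 ± 0.41 (SE; 2.98-fold; adjusted p = 0.0200, edgeR), and 9 of 11 R403Q mice lay above all 10 WT mice. With Npr2, 2 of 6 genes passed in this contrast, where 10.9% of all genes did (1091 higher and 792 lower, or 1909 higher and 443 lower with scaling to library size alone). None of the 6 genes had groups that did not overlap, against 0.266% of all genes. Nppb differed by 0.59 ± 0.27 (SE; adjusted p = 0.154, edgeR) and did not pass. Within cages, R403Q exceeded WT for Nppa in 4 of 4 CD cages, by 0.96 to 4.99 on the log2 scale, and in 2 of 2 EMPA cages that held both genotypes, by 0.22 to 0.50. Nppb was higher in R403Q in 4 of 4 CD cages (0.05 to 2.48 on the log2 scale) and in 1 of 2 EMPA cages. With cage as a factor the Nppa difference over both diets was 1.65 (adjusted p = 0.0407, edgeR), whereas in the CD cages alone it was 2.38 (adjusted p = 0.0894, edgeR).

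**Figure D3:**
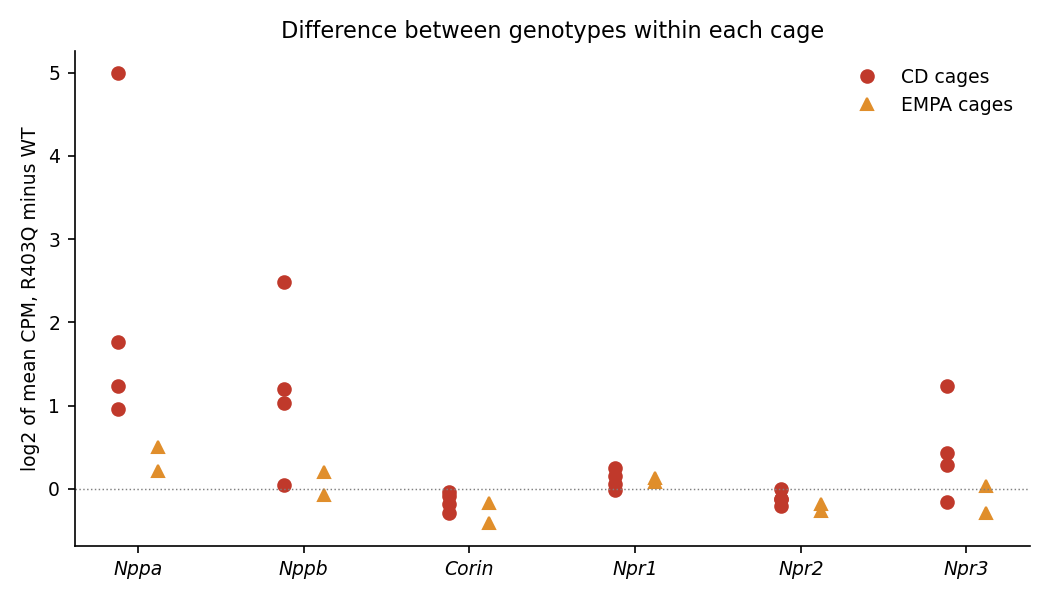
Difference in mean log2 CPM between R403Q and WT mice that shared a cage, for each gene. Each point is a cage (4 CD cages, 2 EMPA cages with both genotypes). Means were taken of log2 CPM, although the axis label reads log2 of mean CPM. Nppa lies above 0 in all 6 cages, from 0.22 to 4.99, and Npr2 and Corin lie below 0 in all 6.

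Corin, the enzyme that activates pro-atrial natriuretic peptide, was not higher in R403Q-CD hearts. The WT-CD mice had 473, 425, 422, 428 and 374 CPM (replicates 1 to 5), and the R403Q-CD mice ran from 345 CPM through a median of 355 to 493 CPM, with 5 of 7 below every WT-CD mouse. The log2 fold change was -0.15 ± 0.10 (SE; adjusted p = 0.381, edgeR). R403Q-EMPA mice had 392.2, 441, 456 and 517 CPM and WT-EMPA mice 585, 482, 510.1, 466 and 647 CPM, of which 4 of 5 lay above every WT-CD mouse. The effect of EMPA in WT hearts was 0.34 ± 0.11 (SE; 1.27-fold; adjusted p = 0.271, edgeR) and in R403Q hearts 0.24 ± 0.10 (SE; 1.18-fold; adjusted p = 0.346, edgeR). Over both diets R403Q hearts had -0.20 ± 0.08 (SE; adjusted p = 0.0840, edgeR), lower in 6 of 6 cages, and DESeq2 put this just past the threshold (adjusted p = 0.0495), where 16.8% of all genes passed and Nppa and Npr2 did as well. Per base of exon the ratio of Nppa to Corin averaged 6.44 (SD 2.13, n = 5) for WT-CD, 10.8 (SD 4.13, n = 4) for R403Q-EMPA and 6.83 (SD 2.03, n = 5) for WT-EMPA, and for R403Q-CD it ran from 11.8 through a median of 20.8 to 198.

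Npr1, the receptor of both cardiac peptides, passed no test and differed little between groups. On the control diet its mean was 29.2 ± 3.88 CPM for WT (SD, n = 5) and 31.3 ± 3.06 CPM for R403Q (SD, n = 7). On EMPA it was 29.3 ± 2.0 CPM for WT (SD, n = 5) and 30.7 ± 3.84 CPM for R403Q (SD, n = 4). All groups overlapped. The log2 fold change of R403Q-CD against WT-CD was 0.10 ± 0.09 (SE; adjusted p = 0.562, edgeR), and that of R403Q-EMPA against R403Q-CD was -0.03 ± 0.10 (SE; adjusted p = 0.929, edgeR). The 2 mice with the highest Nppa had 30.6 and 36.2 CPM of Npr1, within and at the top of the range.

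Npr2, the receptor of C-type natriuretic peptide, varied least of the 6 genes among R403Q-CD mice and was slightly lower in R403Q hearts. The WT-CD mice had 67.8, 69.0, 73.1, 70.6 and 66.9 CPM (replicates 1 to 5), and the R403Q-CD mice ran from 58.9 CPM through a median of 66.0 to 67.0 CPM. R403Q-EMPA mice had 58.5, 66.8, 63.6 and 65.3 CPM and WT-EMPA mice 79.1, 77.8, 66.7, 70.8 and 77.4 CPM. All 4 R403Q-EMPA mice lay below all 5 WT-CD mice, in a contrast in which 7.45% of all genes had groups that did not overlap. Over both diets the log2 difference of R403Q from WT was -0.16 ± 0.04 (SE; 1.12-fold lower; adjusted p = 0.0137, edgeR), with 9 of 11 R403Q mice below every WT mouse, and Npr2 was lower in R403Q in 6 of 6 cages, with differences of -0.26 to -0.01 on the log2 scale. This call was lost with scaling to library size alone (-0.10, adjusted p = 0.117, edgeR) and without the 5 mice with Myl7 above 25 CPM (-0.15, adjusted p = 0.0507, edgeR). By diet, the log2 fold change was -0.10 ± 0.05 on CD (SE; adjusted p = 0.258, edgeR) and -0.23 ± 0.06 on EMPA (SE; adjusted p = 0.109, edgeR). On EMPA none of the 6 genes passed in edgeR, where 0.0578% of all genes did, and DESeq2 called Npr2 alone of the 6 (adjusted p = 0.0163), where 1.86% of all genes passed.

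Npr3, the clearance receptor, varied widely within every group and passed no test. The WT-CD mice had 41.4, 49.5, 30.7, 29.8 and 33.9 CPM (replicates 1 to 5), and the R403Q-CD mice ran from 31.4 CPM through a median of 55.8 to 86.8 CPM, with 4 of 7 above every WT-CD mouse. R403Q-EMPA mice had 27.3, 40.2, 62.4 and 51.0 CPM and WT-EMPA mice 18.3, 56.0, 47.3, 40.6 and 55.2 CPM. The log2 fold change of R403Q-CD against WT-CD was 0.49 ± 0.24 (SE; adjusted p = 0.281, edgeR). The highest R403Q-CD mouse in Npr3, replicate 3, had 930.0 CPM of Nppa, and the highest in Nppa, replicate 2, had 35.0 CPM of Npr3. Npr3 is known in the heart as a gene of the endocardium, the lining of the chambers, and the sum of 7 endocardial markers ran over a similar range, from 167 to 334 CPM in WT-CD and from 181 to 461 CPM in R403Q-CD, highest in replicate 3 as well. The part of endocardial content in the Npr3 levels was not tested.

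**Figure D4:**
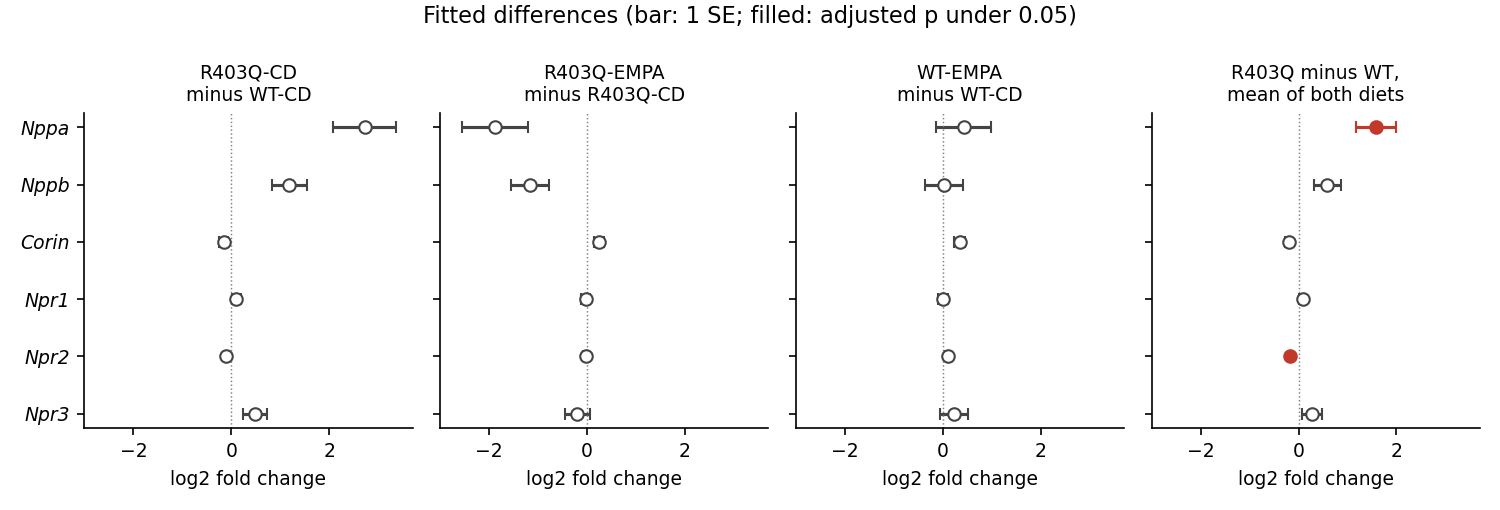
Fitted log2 fold change of each gene in 4 contrasts, with bars of 1 SE and filled red points where the edgeR adjusted p was under 0.05. Only Nppa (1.58) and Npr2 (-0.16) in the mean of both diets are filled. The Nppa point is at 2.73 in R403Q-CD against WT-CD and at -1.88 in R403Q-EMPA against R403Q-CD. Both contrasts use the same R403Q-CD mice, with opposite sign, and without R403Q-CD replicate 2 the values are 1.81 and -0.96.

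The spread between R403Q-CD mice was widest for Nppa. Among the 7 R403Q-CD mice the SD of log2 CPM was 1.38 for Nppa, rank 76 of 17309 genes, and 0.78 for Nppb, rank 939. For Npr3 it was 0.53 and for Corin 0.19. Npr1 had 0.14 and Npr2 0.06, rank 16936. Without replicate 2 the SD was 0.81 for Nppa and 0.44 for Nppb, the latter below the 0.53 of Npr3. In WT-CD the SD of Nppa was 0.51, and that of Nppb 0.55.

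Genes whose log2 CPM followed a member most closely over the 21 mice were named by rank among 14169 genes, as a description that pools groups, cages and libraries. For Nppa they were Muc15 (r = 0.952), Cd44, the hyaluronan receptor (0.945), Fam198b (0.926), Efhd2 (0.925) and Fgl2 (0.925). Muc15, a membrane mucin, was at most at a low level, with a median of 0.0778 CPM in WT-CD and 0.293 CPM in R403Q-CD, where 1 mouse reached 10.5 CPM. For Nppb they were Nppa itself (0.878), Tnfrsf12a, the receptor of the cytokine TWEAK (0.871), Rras2 (0.869), Atp6v1h (0.864) and Tspo (0.860). Npr1 was followed by Ccdc39 (0.840), Dock6 (0.814) and Stard9 (0.751), and Npr2 by Trappc8 (0.879), Clic4 (0.875) and Hif3a (0.857). Within the R403Q-CD mice alone the r of Hif3a with Npr2 was -0.14, so this likeness did not hold within that group. Npr3 was followed by Vwf, von Willebrand factor (0.890), Col23a1 (0.854) and Cgnl1 (0.852), of which Vwf and Cgnl1 are on the list of endocardial markers. Corin was followed by Tacc2 (0.951), Pygo1 (0.949) and Arfgef2 (0.944).

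Corin, described above, passed in DESeq2 over both diets but not in edgeR with all mice. The other enzymes that process or degrade the peptides held no called gene. Of 9 tested genes for processing and degradation, among them the convertase Furin, none passed in any contrast, and their median log2 fold change in R403Q-CD against WT-CD was -0.02, against 0.01 over all genes. The smallest p belonged to Dpp4, a peptidase that trims B-type natriuretic peptide, at 0.53 ± 0.16 (SE; adjusted p = 0.106, edgeR). Furin stood at -0.22 ± 0.10 (SE; adjusted p = 0.247, edgeR). Of 17 tested genes for cyclic GMP synthesis (the receptors not counted), its kinases and phosphodiesterases, none passed in any contrast either. For both lists the share of all genes called was 0.576% in R403Q-CD against WT-CD, 10.9% over both diets and at most 0.493% in the other contrasts. The list for cyclic GMP had a median of 0.15 in R403Q-CD against WT-CD. The phosphodiesterases with the smallest p were Pde1a at 0.45 ± 0.19 (SE; adjusted p = 0.210, edgeR) and Pde5a, which breaks down cyclic GMP, at 0.69 ± 0.31 (SE; adjusted p = 0.226, edgeR).

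Among 19 cardiac transcription factors known to act on the ligand genes, none passed in R403Q-CD against WT-CD, and 5 were lower and none higher in R403Q over both diets, where 4.58% of all genes were called lower. The 5 were Tead1 (-0.32 ± 0.08, adjusted p = 0.0170), Nfatc2 (-0.22 ± 0.06, adjusted p = 0.0243), Myocd (-0.30 ± 0.08, adjusted p = 0.0284), Mef2a (-0.17 ± 0.05, adjusted p = 0.0313) and Gata6 (-0.17 ± 0.05, adjusted p = 0.0493), as log2 differences with SE from edgeR. These are known as activators of cardiac muscle genes. On the control diet Tead1 had 259.6 ± 28.8 CPM for WT (SD, n = 5) and 201 ± 33.5 CPM for R403Q (SD, n = 7). On EMPA it had 299 ± 36.7 CPM for WT (SD, n = 5) and 246 ± 26.2 CPM for R403Q (SD, n = 4). The list's median over both diets was -0.12, against 0.01 over all genes.

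Of 15 genes of the stretch response and fetal gene programme, which often rise with the ligands in loaded hearts, none passed in R403Q-CD against WT-CD (median 0.50), and 3 were higher and none lower in R403Q over both diets, where 6.3% of all genes were called higher. They were Mybpc2, a myosin binding protein of fast skeletal muscle (0.62 ± 0.17, adjusted p = 0.0224), Timp1, an inhibitor of matrix metalloproteinases (2.31 ± 0.65, adjusted p = 0.0287), and Csrp3, the muscle LIM protein of the Z disc (0.26 ± 0.07, adjusted p = 0.0311), as log2 differences with SE from edgeR. Timp1 ran from 1.91 CPM through a median of 2.68 to 75.8 CPM in R403Q-CD, where 1 mouse carried the mean, against 1.36 to 2.36 CPM in WT-CD.

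Over both diets, where 6.3% of all genes were called higher and 4.58% lower, markers of other cell types were called as well. All 6 macrophage markers were higher in R403Q (Csf1r by 0.47 ± 0.07 on the log2 scale, SE; adjusted p = 0.00145, edgeR), as were 2 of 8 fibroblast markers, Dcn (0.40 ± 0.11, SE; adjusted p = 0.0241, edgeR) and Lum (0.82 ± 0.23, SE; adjusted p = 0.0274, edgeR), and 2 of 7 endothelial markers, Fabp4 and Cldn5. Of 9 markers of the conduction system, Hcn4, the pacemaker channel, and Cacna1g, a T-type calcium channel, were lower, with log2 differences of -0.83 and -0.79. None of the 9 cardiomyocyte, 9 tested atrial, 7 endocardial, 5 smooth muscle, 5 pericyte, 5 red cell or 4 adipocyte markers passed in this contrast. In R403Q-CD against WT-CD, where 0.576% of all genes passed, the markers past the threshold were Csf1r, higher, and Hcn4 and Cacna1g, lower. The summed macrophage markers ran from 263 to 359 CPM in WT-CD and from 379 to 676 CPM in R403Q-CD. Their part in the differences of the natriuretic genes was not tested.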

How the data were processed

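The authors extracted RNA from frozen left ventricle, selected polyadenylated RNA, aligned read pairs to mm10 with STAR 2.6.0c and made the deposited counts with featureCounts (Subread 1.6.2) from uniquely aligned proper pairs on the same strand, leaving out mitochondrial genes. A second deposited table holds log2 values, variance-stabilized counts from DESeq2 1.32.0. Reads of multigene copies that do not align uniquely are therefore missing from the counts.

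Symbols and positions came from GENCODE on GRCm38, and promoters from RefSeq. Counts were tested in R 4.3.3 with edgeR 4.0.16 (filterByExpr with a minimum count of 10, TMM, quasi-likelihood F test, Benjamini-Hochberg adjustment over all genes tested, threshold 0.05). WT-CD, R403Q-CD and R403Q-EMPA shared a fit of 17025 genes, and contrasts with WT-EMPA came from a fit of all 4 groups with 17309 genes. CPM used TMM factors, and log2 CPM, with 2 added as prior count, entered the correlations. Each mouse is 1 sample, numbered in the order of deposit within its group. The tests were tried on simulated data.

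The alternatives were DESeq2 1.42.0, no filter, library size alone, the deposited log2 values tested with limma 3.58.1, other groups in the fit, cage as a factor, leaving out each mouse in turn, and as a choice made after the data were seen, leaving out the mice with Myl7 above 25 CPM. Named genes were the 6 members, Myh6, the genes of each list past the threshold in any contrast (at most 5, by p) or else the 2 with the smallest p in R403Q-CD against WT-CD, the tested genes within 100 kb of Nppa or Nppb (1 of them is not reported here), and the 5 (ligands) or 3 genes most correlated with each member. The atrial genes Sln, Myl4, Myl7 and Bmp10 were named after their values were seen. The members and lists were chosen with earlier results of these data known.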

Additional observations from a re-analysis of the deposited data

Results flagged for a closer look

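In 24 sets of values (each of the 6 genes in each of the 4 groups), 4 had a mouse far from the others by Dixon's ratio of the gap to the range, on the CPM or the log2 scale, where chance flags about 1 in 20 sets on a scale. The CPM scale was added after the log2 values had been seen. Nppa at 10988 CPM and Nppb at 645 CPM in R403Q-CD replicate 2 stood apart on the CPM scale but not on the log2 scale, and the values without this mouse are given with the results. Npr2 stood at 58.9 CPM in R403Q-CD replicate 1 on both scales, below 63.8 to 67.0 CPM in the other 6 mice of the group. Npr3 stood at 18.3 CPM in WT-EMPA replicate 1 on the log2 scale alone, below 40.6 to 56.0 CPM in the other 4. The latter mouse also had Myl7 above 25 CPM and the lowest endocardial sum of its group (156 CPM), and their part in its Npr3 level was not tested.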

How the results depend on the processing

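In R403Q-CD against WT-CD, edgeR called 0 of the 6 genes (98 of 17025 over all genes) and DESeq2 called 2 (806 of 16895). With all 4 groups in 1 fit 1 was called (250 of 17309). The same number was called with no filter on low counts (106 of 31613) and without the mice with Myl7 above 25 CPM (143 of 16696). When each mouse was left out in turn, 0 to 1 was called, and 14 to 630 over all genes. Nppa was called without R403Q-CD replicate 2 (1.81, with 177 of 16927 genes called) or replicate 3 (2.88, with 630 of 16992). Its log2 fold change ran from 1.81 to 2.89 over the mice left out. In R403Q-EMPA against WT-EMPA, 0 (10 of 17309 over all genes) became 1 with DESeq2 (299 of 16101). It was 0 to 1 with single mice left out, and 1 without WT-EMPA replicate 3 (64 of 17338). Over both diets, edgeR called 2 of the 6 genes, and 1883 of 17309 over all genes. The 2 became 1 with library size alone (2352 of 17309) and 1 without the mice with Myl7 above 25 CPM (1181 of 16922), through Npr2. The count became 3 with DESeq2 (2697 of 16101) and 2 to 3 with single mice left out, through Corin. Corin passed without R403Q-CD replicate 3 (-0.24, adjusted p = 0.0216, edgeR), where 2764 of 17349 genes did. Nppa passed under all 27 alternatives (1.11 to 1.68, adjusted p 0.00501 to 0.0446). The correlation of Nppa and Nppb without the 2 farthest mice was 0.863 (exact permutation p = 0.05). The causes of these shifts were not tested.

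Directions turned only for log2 fold changes of at most 0.07 in size. Nppb turned in R403Q-EMPA against WT-CD without the mice with Myl7 above 25 CPM (-0.00752), in WT-EMPA against WT-CD with limma (-0.0283), and in R403Q-EMPA against WT-EMPA with cage as a factor (0.0855), library size alone (0.0461) and limma (0.0880). Npr1 turned in WT-EMPA against WT-CD with library size alone (-0.0066) and with only the 2 groups compared (-0.0026), and Npr3 in R403Q-EMPA against WT-EMPA with cage as a factor (-0.12) and without the mice with Myl7 above 25 CPM (-0.14). The likeness of Hif3a to Npr2 was -0.14 in R403Q-CD mice alone. With single mice left out, the turned log2 fold changes ran from -0.0890 to 0.0469 for Npr1 and from -0.0565 to 0.0105 for Npr2 in R403Q-EMPA against R403Q-CD, and from -0.14 to 0.20 for Nppb in R403Q-EMPA against WT-CD. In WT-EMPA against WT-CD they ran from -0.31 to 0.21 for Nppb and from -0.0442 to 0.0847 for Npr1. In R403Q-EMPA against WT-EMPA they ran from -0.17 to 0.33 for Nppb, from -0.0024 to 0.15 for Npr1 and from -0.15 to 0.23 for Npr3, and the interaction of Npr1 from -0.11 to 0.0495.

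The labels give no replicate numbers, but their cage label ties R403Q and WT mice, and the fits with cage as a block changed no call of a member: Nppa was at 2.38 (adjusted p = 0.0894) on CD and at 1.65 (adjusted p = 0.0407) over both diets, and Npr2 at -0.15 (adjusted p = 0.0489) over both diets. No cage holds both diets, so the contrasts between diets have no such fit, and the interaction was not fitted with cage. Groups of 4 to 7 mice and the wide spread of Nppa limit the tests, the diets were housed in separate cages, and whole tissue does not separate cell types. Each p covers the spread between mice of these cages.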
